A study of Mus musculus with 18 samples.

Results

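The Hedgehog pathway genes described here are 8 rows of a gene count table of 31787 symbols, chosen by gene name: the ligands Shh and Ihh, the receptor Ptch1, the signal transducer Smo, the ligand-binding inhibitor Hhip and the transcription factors Gli1, Gli2 and Gli3. All 8 passed the filter on low counts, as did 21050 genes in all. In this pathway, secreted Hedgehog ligand binds Ptch1, which otherwise holds Smo inactive, and active Smo at the primary cilium changes how GLI proteins regulate transcription. Gli1, Ptch1 and Hhip are themselves classic targets of the pathway, so their RNA is often read as its output, while Gli2 acts mainly as an activator and Gli3 mainly as a repressor. In the kidney, Shh and Ihh are known from epithelial cells, and Gli1 and Gli2 from fibroblasts and pericytes between the tubules, which give rise to scar-forming myofibroblasts.

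The study sequenced RNA from pieces of whole mouse kidney in 6 groups of 3, after unilateral ureteral obstruction (UUO, tying off of the ureter of 1 kidney, a standard model of kidney scarring) or without it. Healthy kidneys came from mice aged 12 weeks with the genotype - FF (Cdh5-CreERT2;Twist), so all were Cre-negative. Contralateral kidneys, opposite an obstructed kidney, and wild-type (WT) UUO kidneys, at the same age, each came from 2 mice labelled + ++ and 1 labelled - FF of that line, so each group held both Cre-positive and Cre-negative animals. The Twist EndMT–cKO UUO group was + FF (Cdh5-CreERT2;Twist) and the Snail EndMT–cKO UUO group + FF (Cdh5-CreERT2;Snail), both at 12 weeks. Cdh5-CreERT2 is an inducible Cre driven by an endothelial promoter. The Myc GGT–cKO UUO group was + FF (GGT-Cre;Myc) at 11 to 12 weeks. GGT-Cre is active in kidney tubule epithelium. The kidneys of all groups but Snail and Myc had a mixed strain (C57BL6, 129sv, Balb/c), and those of Snail and Myc had a background of C57BL6 and Balb/c without 129sv. No obstructed control from the Snail or Myc line was among the samples, so line background and gene deletion cannot be told apart in those groups. The 3 knockout groups are called Twist cKO, Snail cKO and Myc cKO below. Sex was read from RNA of Ddx3y and Xist. Only replicate 2 read as male in healthy, contralateral, WT UUO and Twist cKO kidneys. In Snail cKO and in Myc cKO replicates 1 and 3 did, so sex was unevenly spread between the groups. In whole-kidney RNA, fewer cells of a type and less RNA per cell cannot be told apart, and it is not stated whether any kidneys share an animal. The p-values therefore reflect only how these samples varied.

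Total counts lay between 52.6 and 91.3 M per library, of which 2 mitochondrial ribosomal RNAs took 44.6% to 50.3% in unobstructed, 19.2% to 20.3% in WT UUO and 23.7% to 34.9% in knockout kidneys, highest among obstructed ones in Myc cKO replicate 3. The part of this share in the comparisons between those groups was not tested beyond a fit without these 2 RNAs. Levels are CPM, counts scaled to library size with edgeR's TMM factors, and values for 3 libraries are given in the order of replicate 1, 2 and 3. A gene is said to have risen or fallen where edgeR's quasi-likelihood test gave a Benjamini-Hochberg adjusted p under 0.05 over all genes tested. Of the targeted genes, Twist1 was lower in Twist cKO than in WT UUO by a log2 difference of -2.59 ± 0.49 (SE, adjusted p = 0.0172). The call was lost without WT UUO replicate 1 or any 1 of the 3 Twist cKO libraries, where the adjusted p reached 0.0701. Snai1 differed by -0.61 ± 0.38 in Snail cKO (0.487) and Myc by -0.45 ± 0.23 in Myc cKO (0.217), neither past the threshold. Whole-kidney RNA also holds cells outside those in which each Cre is active. These values therefore do not show whether the genes were deleted in the targeted cells.

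Of the 8 genes, 6 had a promoter window in the RefSeq table of mouse genome build GRCm38.p6, reaching from 250 bases before to 50 bases after the transcription start. Gli1 and Shh had no entry. The 250 upstream bases of 4 of them are shown, for Gli2 and Gli3, which rose in obstructed kidneys, and for the pathway targets Ptch1 and Hhip, which did not rise against healthy kidneys. Capitals mark each GC box (GGGCGG or its reverse complement CCGCCC), a short motif common near the starts of many genes. The Gli2 window is chr1:119053620-119053869 on the minus strand, the Gli3 window chr13:15463473-15463722 on the plus strand, the Ptch1 window chr13:63565736-63565985 on the minus strand and the Hhip window chr8:80058009-80058258 on the minus strand.
Gli2: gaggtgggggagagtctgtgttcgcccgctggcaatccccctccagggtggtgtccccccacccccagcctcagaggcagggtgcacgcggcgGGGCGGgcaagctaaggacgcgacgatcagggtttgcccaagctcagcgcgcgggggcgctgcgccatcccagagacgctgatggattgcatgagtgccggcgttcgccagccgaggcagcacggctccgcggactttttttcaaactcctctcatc
Gli3: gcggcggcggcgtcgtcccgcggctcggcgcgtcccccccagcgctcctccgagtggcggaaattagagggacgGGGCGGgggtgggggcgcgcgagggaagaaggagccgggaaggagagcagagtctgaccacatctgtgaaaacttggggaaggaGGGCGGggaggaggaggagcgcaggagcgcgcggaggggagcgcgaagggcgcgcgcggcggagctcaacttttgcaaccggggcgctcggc
Ptch1: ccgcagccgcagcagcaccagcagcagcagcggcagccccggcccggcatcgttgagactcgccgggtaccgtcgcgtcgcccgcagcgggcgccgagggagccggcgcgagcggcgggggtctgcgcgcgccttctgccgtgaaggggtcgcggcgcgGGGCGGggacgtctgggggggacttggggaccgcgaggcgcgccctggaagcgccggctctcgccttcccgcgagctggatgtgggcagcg
Hhip: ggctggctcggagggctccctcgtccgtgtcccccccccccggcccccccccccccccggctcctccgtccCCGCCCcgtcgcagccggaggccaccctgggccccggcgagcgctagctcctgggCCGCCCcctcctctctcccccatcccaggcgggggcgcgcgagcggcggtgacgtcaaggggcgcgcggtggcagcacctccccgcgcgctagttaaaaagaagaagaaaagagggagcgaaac
The consensus bound by GLI proteins, GACCACCCA or TGGGTGGTC, was in 0 of the 6 windows and in 0.253% of all 32851 windows of the table. The E-box of Myc, CACGTG, was in 0 of 6 and in 7.15% of all windows, and the E-box of Snail, CAGGTG or CACCTG, in 0 of 6 and 20.2%. A GC box lay in 5 of 6 windows, all but that of Smo, and in 35.7% of all windows. The 6 windows held 67.3% to 76.3% G and C, against a median of 52.7% over all windows. None of these motifs contains another, both strands were searched, and a missing match says only that these letters are not in this window. The GENCODE M21 models place the first bases of Ptch1 and Gli3 elsewhere, at 63573598 and 15463235, so other starts of these genes lie outside the windows.

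In mm10 coordinates of GENCODE M21, Shh lies on chromosome 5 (28456815 to 28467256), Ihh on chromosome 1 (74945315 to 74951672), Ptch1 on chromosome 13 (63508328 to 63573598) and Smo on chromosome 6 (29735503 to 29761365). Gli1 lies on chromosome 10 (127329882 to 127341974), Gli2 on chromosome 1 (118834132 to 119053619), Gli3 on chromosome 13 (15463235 to 15730026) and Hhip on chromosome 8 (79965851 to 80058006). All 8 are protein-coding. Exons of Gli1 share 265 bases with Gm47200 and 62 with Arhgap9, both on the other strand, and Arhgap9 lay between 0.427 and 7.54 CPM over the 18 libraries. Exons of Shh share 446 bases with 9530036O11Rik and 361 with Gm26894, both on the other strand, which reached at most 0.532 and 1.30 CPM. Gli3 shares 188 bases with Gm6556, which had at most 4 counts, and Hhip shares 175 with Gm27820. Gm47200 and Gm27820 had no row under these names among the gene counts, so they have no levels here. The kit keeps strand, but the strand setting of the counting is not given in the sources used here, so reads of these pairs may not be fully separated.

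Set per kilobase of exon, Smo was the most abundant of the 8 in WT UUO kidneys at 9.55 ± 0.463 CPM per kilobase (SD, n = 3). It was followed by Ptch1 (1.72 ± 0.109), Ihh (1.5 ± 0.454) and Gli3 (1.28 ± 0.15), of which neighbours overlapped in their libraries. Gli1 (0.598 ± 0.145), Shh (0.282 ± 0.414) and Gli2 (0.266 ± 0.109) formed a lower set that overlapped from neighbour to neighbour, and Hhip had the lowest mean at 0.0488 ± 0.0492. The place of Shh rests on replicate 1 (0.760). Its replicates 2 and 3 (0.0438 and 0.0429) lay below every Gli2 library and within the range of Hhip. In healthy kidneys the same per-kilobase scale ran from Smo (7.88 ± 0.370) over Ihh (2.10 ± 0.424) and Ptch1 (1.67 ± 0.298), which overlapped, to Gli3 (0.155 ± 0.0379) and Gli1 (0.125 ± 0.0245), which also overlapped. Shh followed at 0.0733 ± 0.0217, then Hhip at 0.0616 ± 0.0205, which overlapped with Shh, and Gli2 at 0.0274 ± 0.0145. Gli2 was thus the least abundant of the 8 in healthy kidneys and above Hhip in obstructed WT kidneys.

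**Figure D1:**
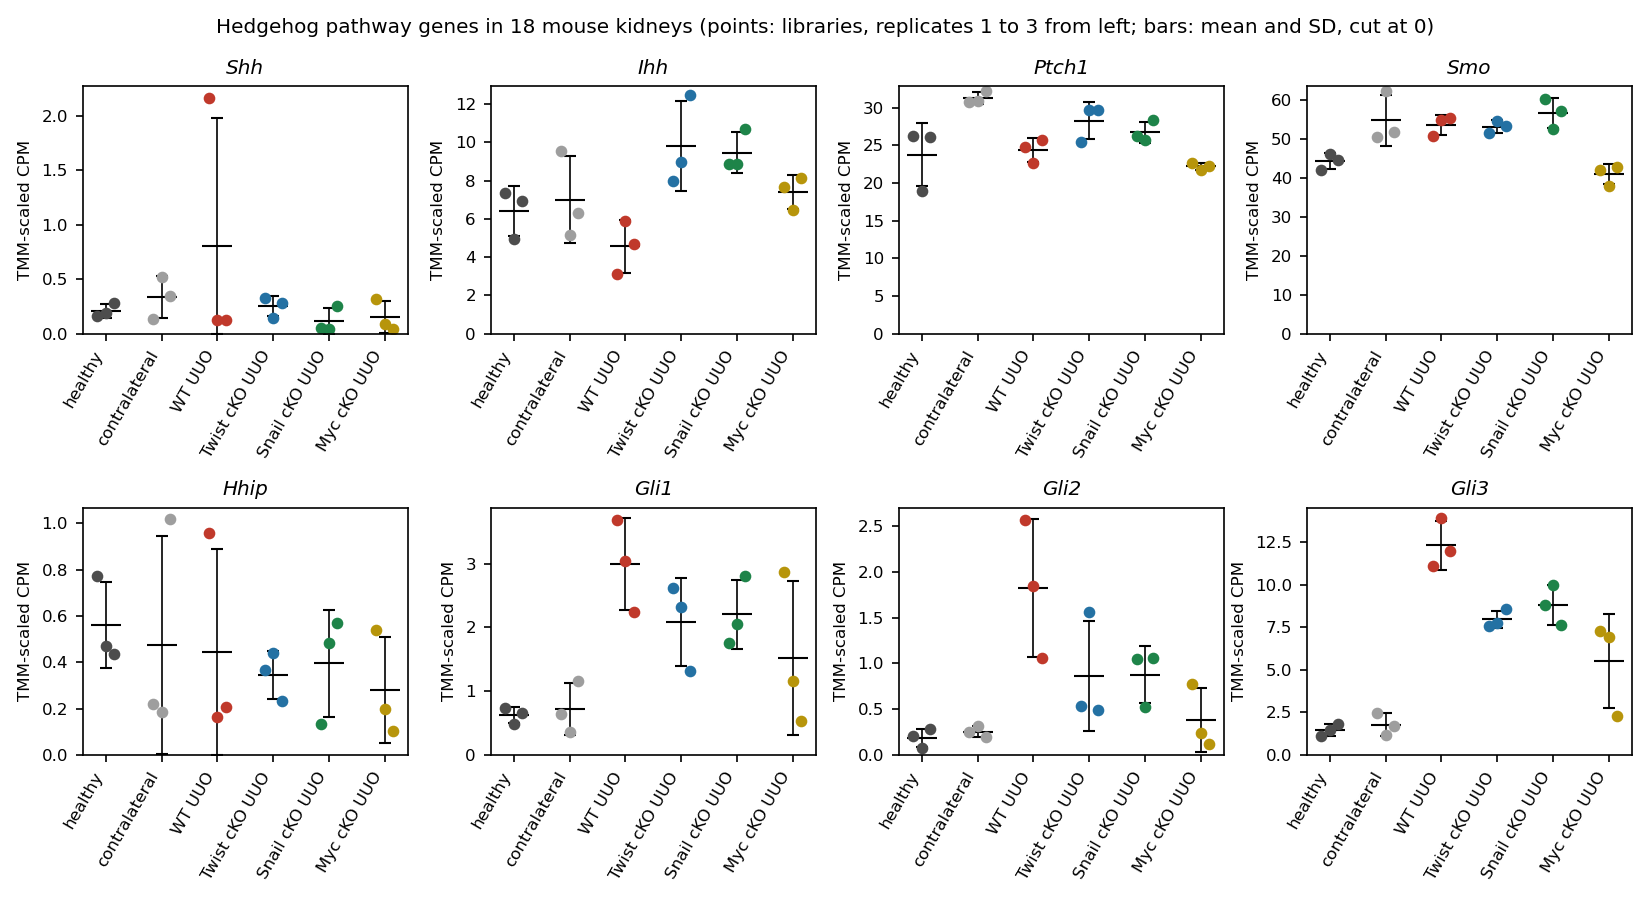
TMM-scaled CPM (vertical axis, from 0) of each of the 8 genes in the 6 groups. Points are the 3 libraries of a group and bars the mean and SD. The 3 WT UUO libraries lie above all healthy and contralateral libraries for Gli1, Gli2 and Gli3, and a single WT UUO library at 2.16 CPM stands above all others for Shh.

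Obstructed WT kidneys had more RNA of the 3 GLI transcription factors than either kind of unobstructed kidney. Against healthy kidneys Smo was also slightly higher, and the ligands, Ptch1 and Hhip had no called change. In that comparison 4 of the 8 rose and 0 fell, where 29.2% of all genes tested rose and 27.1% fell. The median log2 difference was 1.10 over the 8 genes and 0.052 over all genes tested.

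Gli3 had 1.12, 1.5 and 1.85 CPM in healthy kidneys, 2.48, 1.15 and 1.71 in contralateral kidneys and 11.1, 13.9 and 12.0 in WT UUO. The lowest WT UUO library (11.1) lay far above the highest unobstructed library (2.48). Gli3 rose by 3.04 ± 0.37 (log2, SE; an 8.25-fold change; adjusted p = 5.58e-06) against healthy and by 2.79 ± 0.36 (1.3e-05) against contralateral kidneys.

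Gli2 had 0.203, 0.0819 and 0.279 CPM in healthy kidneys, from 4 to 18 counts per library, and 0.256, 0.316 and 0.197 in contralateral kidneys. In WT UUO it had 2.57, 1.85 and 1.06 CPM, from 87 to 217 counts. The groups did not overlap, and the obstructed libraries spread more widely among themselves for Gli2 than for Gli3. Gli2 rose by 3.25 ± 0.68 (log2; 9.48-fold; adjusted p = 0.000819) against healthy and by 2.83 ± 0.66 (0.00205) against contralateral kidneys.

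Gli1, whose RNA is often taken as the closest readout of pathway activity, had 0.732, 0.492 and 0.651 CPM in healthy and 0.649, 0.353 and 1.16 in contralateral kidneys. It had 3.68, 3.04 and 2.24 CPM in WT UUO, where every library lay above every unobstructed one. Gli1 rose by 2.25 ± 0.53 (log2; 4.76-fold; adjusted p = 0.00202) against healthy and by 2.04 ± 0.52 (0.00399) against contralateral kidneys. The calls of Gli1, Gli2 and Gli3 in both comparisons held without any 1 library and under every other setting tried.

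Smo had 42.1, 46.3 and 44.5 CPM in healthy kidneys, 50.4, 62.4 and 51.8 in contralateral kidneys and 50.7, 55.0 and 55.3 in WT UUO. The WT UUO libraries lay above the healthy ones but among the contralateral ones. Smo rose by 0.28 ± 0.087 (log2; 1.21-fold; adjusted p = 0.0137) against healthy kidneys, and this call was lost without healthy replicate 1 (0.24, adjusted p = 0.0579) and with Cre presence as a covariate (0.26, 0.0643).

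Ptch1, the receptor and a classic target, had 26.3, 18.9 and 26.1 CPM in healthy and 24.8, 22.7 and 25.7 in WT UUO kidneys, which overlapped. Its log2 difference was 0.04, with a 95% interval from -0.19 to 0.27 (adjusted p = 0.789), so a rise of the size seen for the GLI genes lay outside that interval. Without healthy replicate 2, the lowest library, the difference was -0.10 (adjusted p = 0.338). In contralateral kidneys Ptch1 had 30.7, 30.9 and 32.2 CPM, above every WT UUO library. Against these kidneys it fell by 0.36 ± 0.11 (log2; adjusted p = 0.0117), a call that was lost without WT UUO replicate 2 (-0.31, adjusted p = 0.0511). In WT UUO against contralateral kidneys 3 of the 8 rose and 1 fell, where 27.5% of all genes tested rose and 26.0% fell.

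Hhip, which binds ligand outside the cell, had 0.773, 0.471 and 0.434 CPM in healthy kidneys, 0.222, 0.186 and 1.02 in contralateral kidneys and 0.958, 0.162 and 0.208 in WT UUO. The groups overlapped, and 1 library in each of the latter groups was far above the other 2. The log2 difference of WT UUO against healthy was -0.33 with a 95% interval from -2.02 to 1.36 (adjusted p = 0.748), wide enough to hold changes in either direction. Without WT UUO replicate 2 or 3 it was 0.067 or 0.012.

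Shh had 0.163, 0.184 and 0.279 CPM in healthy kidneys, 0.137, 0.520 and 0.345 in contralateral kidneys and 2.16, 0.125 and 0.122 in WT UUO. The first WT UUO library held 183 counts of Shh and the other 2 held 10 each. The log2 difference against healthy was 1.93 ± 1.03 (adjusted p = 0.126), and without WT UUO replicate 1 it was -0.75 (0.502). That library was also the highest of all 18 in the summed level of 7 urothelium markers, at 426.9 CPM, while its group's other libraries had 99.1 and 48.4 CPM and healthy kidneys 0.936 to 4.08. All 7 urothelium markers rose in WT UUO against healthy kidneys, where 29.2% of all genes rose. Upk2 and Krt5 were at 0 in healthy replicate 1. The smooth muscle sum of WT UUO replicate 1, over 6 markers of which 5 rose, was 360.5 CPM. This was above 158.5 and 106.3 CPM in replicate 2 and 3 and 70.01 to 83.0 CPM in healthy kidneys. The part of these cell types in the level of Shh was not tested.

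Ihh, the other ligand, had more counts than Shh in every library, with 7.36, 4.94 and 6.92 CPM in healthy kidneys, 9.53, 5.15 and 6.28 in contralateral kidneys and 3.12, 5.88 and 4.71 in WT UUO. These groups overlapped. The log2 difference of WT UUO was -0.49 ± 0.26 against healthy (adjusted p = 0.120) and -0.61 ± 0.26 against contralateral kidneys (0.0566). Without WT UUO replicate 2, the highest of its group, Ihh fell in both comparisons (-0.71, adjusted p = 0.0464, and -0.84, 0.0227), and without contralateral replicate 2 it fell in the latter (-0.79, 0.0255).

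Contralateral kidneys were set against healthy ones as the 2 kinds of unobstructed kidney. By edgeR 0 of the 8 genes were called, where 1.96% of all genes tested rose and 0.299% fell, and 2 had an unadjusted p under 0.05. These were Ptch1 (log2 difference 0.40 ± 0.11, adjusted p = 0.0688) and Smo (0.31 ± 0.087, 0.0763), whose contralateral libraries all lay above the healthy ones. The median log2 difference was 0.28 over the 8 and -0.0099 over all genes. DESeq2 called these 2 and limma voom 0, Ptch1 was called without healthy replicate 3 (0.47, adjusted p = 0.0411) and Smo with sex as a covariate (0.30, 0.0262).

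The other genes of the pathway were taken from 3 lists: 10 genes of ligand release and ligand binding, 18 of signal transduction and the cilium, and 10 target genes, of which 9 were tested. In WT UUO against healthy kidneys, 8 of the 10 genes of the first list rose and 0 fell by edgeR, where 29.2% of all genes rose and 27.1% fell (8 had an unadjusted p under 0.05; DESeq2 and limma voom also called 0 lower), with a median log2 difference of 1.31 against 0.052 over all genes. Scube1, a relative of the secreted proteins that carry ligand away from cells, rose by 4.33 ± 0.44 (log2; adjusted p = 1.38e-06), Hhat, which attaches a lipid to the ligand, by 1.36 ± 0.14, and Disp1, which releases it, by 1.17 ± 0.19. The co-receptor gene Cdon rose by 1.34 ± 0.15. Gpc3, a surface proteoglycan that can compete for ligand, rose by 2.41 ± 0.32.

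Signal transduction genes moved both ways in WT UUO against healthy kidneys: 5 of 18 rose and 9 fell, with a median of -0.28. Of all genes 29.2% rose and 27.1% fell there, so the number that rose is near the share of all genes. Gpr161, a ciliary receptor that keeps the pathway low, rose by 2.71 ± 0.32 (log2; adjusted p = 4.9e-06), Arrb2, an arrestin, by 1.99 ± 0.21, the ciliary motor gene Kif7 by 1.70 ± 0.26 and Adrbk1, a kinase that phosphorylates Smo, by 0.60 ± 0.097. Evc, a ciliary partner of Smo, fell by 1.78 ± 0.23 (1.3e-05), from 161.1 ± 31.8 to 46.9 ± 10.4 CPM, and Ift88, which builds cilia, fell by 0.49 ± 0.099. Of the 9 target genes tested 6 rose and 2 fell against healthy kidneys, with a median of 1.23, where 29.2% of all genes rose and 27.1% fell. The number that fell is near the share of all genes. Against contralateral kidneys 3 rose and 2 fell, with a median of 0.45, where 27.5% of all genes rose and 26.0% fell. Both of those numbers are near the shares of all genes. The transcription factor gene Foxf1 rose by 4.27 ± 0.84 (0.000502; 2.85 without WT UUO replicate 1), the cyclin gene Ccnd2 by 1.65 ± 0.35, Mycn by 1.49 ± 0.31 and Foxc2 by 0.78 ± 0.21. Ccnd1, another cyclin gene, fell by 1.08 ± 0.18 and Bmp4, a secreted signal, by 0.84 ± 0.16. Leaving out 1 library at a time gave 7 to 8 higher in the first list, 5 to 6 higher and 7 to 9 lower in the second, and 5 to 6 higher and 2 lower in the third. In contralateral against healthy kidneys edgeR called 0 of the 37 genes tested in these lists, with 9 at an unadjusted p under 0.05, DESeq2 called 2 target genes higher and limma voom called 0.

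**Figure D2:**
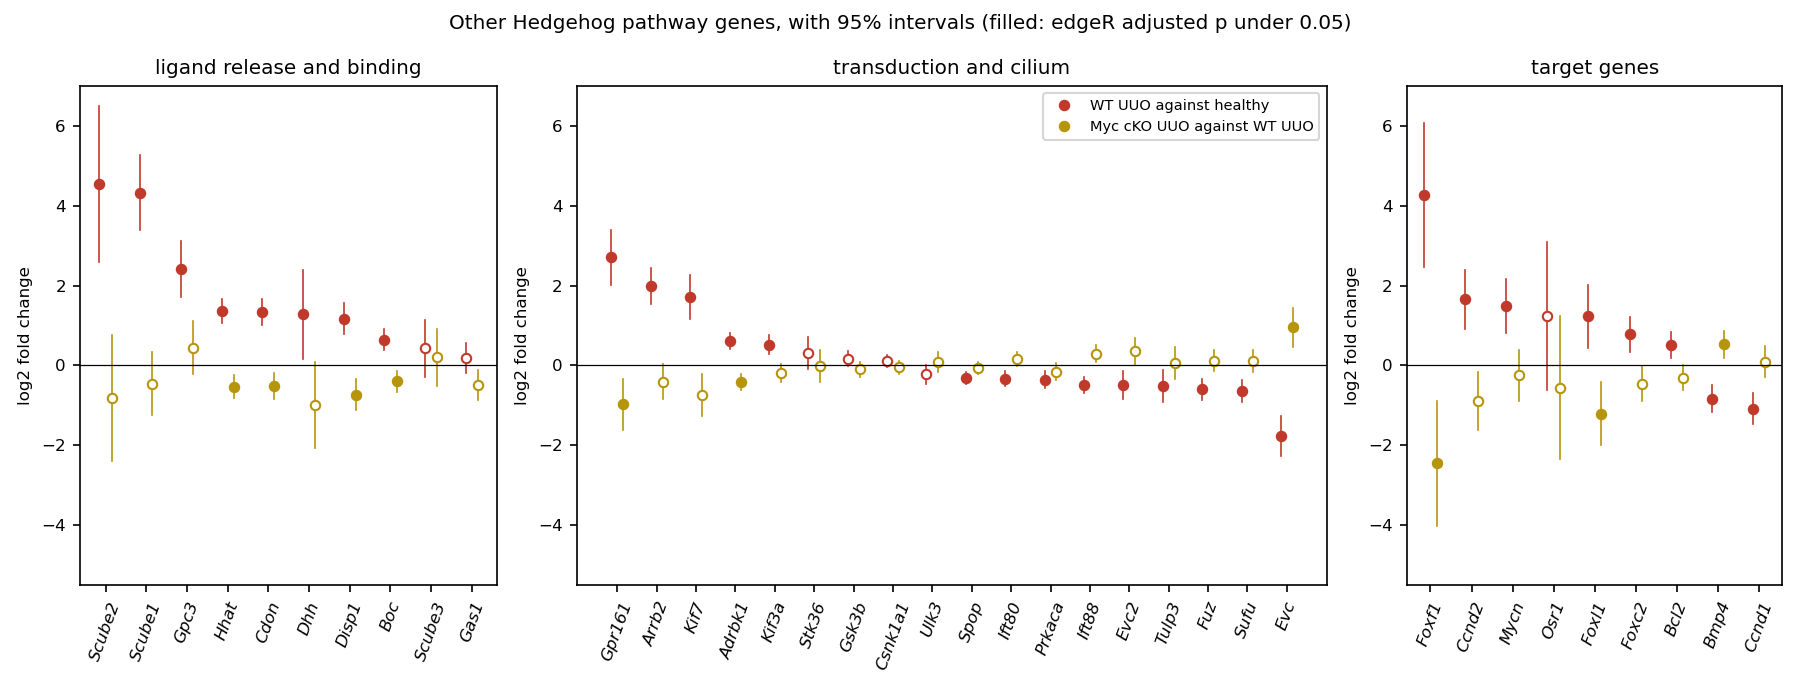
Log2 fold changes with 95% intervals (vertical axis) of the other pathway genes in 3 lists, for WT UUO against healthy and Myc cKO against WT UUO. Filled points passed an adjusted p of 0.05. Gpr161 and Disp1 lie above 0 in the first comparison and below 0 in the second, and Evc the other way round.

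Fibroblast and pericyte markers, like the GLI genes, were higher in WT UUO than in unobstructed kidneys. Within groups, some GLI genes followed the order of the marker sum and others did not. The summed level of 10 fibroblast and pericyte markers, from Pdgfra and Pdgfrb to Col1a1 and Postn, was 292 to 426 CPM in healthy, 314 to 405 in contralateral and 3150 to 6136 in WT UUO kidneys. All 10 rose in WT UUO against healthy, where 29.2% of all genes rose. The sum lay between 1597 and 1791 CPM in Twist cKO, 2118 and 3010 in Snail cKO and 759 and 2736 in Myc cKO kidneys. Against WT UUO, 2 of the 10 fell in Twist cKO, 4 in Myc cKO and 0 in Snail cKO by edgeR, where 4 had an unadjusted p under 0.05. Of all genes tested 2.31%, 6.91% and 0.138% fell in these comparisons, in that order. Myc cKO replicate 3 had the lowest fibroblast and pericyte sum of the 12 obstructed libraries and the lowest Gli1, Gli2 and Gli3. Within Myc cKO, Gli1, Gli2 and Gli3 all followed the order of the sum. In WT UUO Gli1 and Gli2 followed it, while the library with the highest sum (replicate 1, 6136 CPM) had the lowest Gli3. In Snail cKO Gli1 followed it, and replicate 3, with the highest sum (3010 CPM), had the lowest Gli3. Its Gli2 was highest only by a near tie, at 1.059 CPM against 1.054 in replicate 1. In Twist cKO no GLI gene followed the order of the sum. In Myc cKO the marker median log2 difference was 0.21 against Twist cKO and -0.45 against Snail cKO. The GLI genes lay lower in both (Gli3 -0.53 and -0.68), none past the threshold. None of the 10 markers was at 0 in any WT UUO or Myc cKO library. The part of these cells in the levels of the GLI genes was not tested.

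Proximal tubule and loop of Henle markers moved the opposite way. The summed level of 8 proximal tubule markers was 11610 to 12618 CPM in healthy, 12317 to 15657 in contralateral and 611 to 1510 in WT UUO kidneys. All 8 fell in WT UUO against healthy, where 27.1% of all genes fell. The sum was 2194 to 3834 CPM in Twist cKO, 1519 to 2384 in Snail cKO and 2131 to 4023 in Myc cKO kidneys. Against WT UUO, 5 of 8 rose in Twist cKO and in Myc cKO, and 0 in Snail cKO by edgeR (3 had an unadjusted p under 0.05). Of all genes 2.97%, 5.31% and 0.162% rose, in that order. For the collecting duct 7 markers summed to 243 to 354 CPM in healthy, 91.4 to 148 in WT UUO, 166 to 251 in Twist cKO, 154 to 156 in Snail cKO and 89.6 to 244 in Myc cKO kidneys. In WT UUO against healthy, 1 of these 7 rose and 4 fell, where 29.2% of all genes rose and 27.1% fell. All 5 loop of Henle markers fell. Of 7 endothelial markers 2 rose and 3 fell, and the number that rose is near the share of all genes. Of 7 adipocyte markers 0 were called by edgeR and 0 had an unadjusted p under 0.05. Other tools were not run on the markers.

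**Figure D3:**
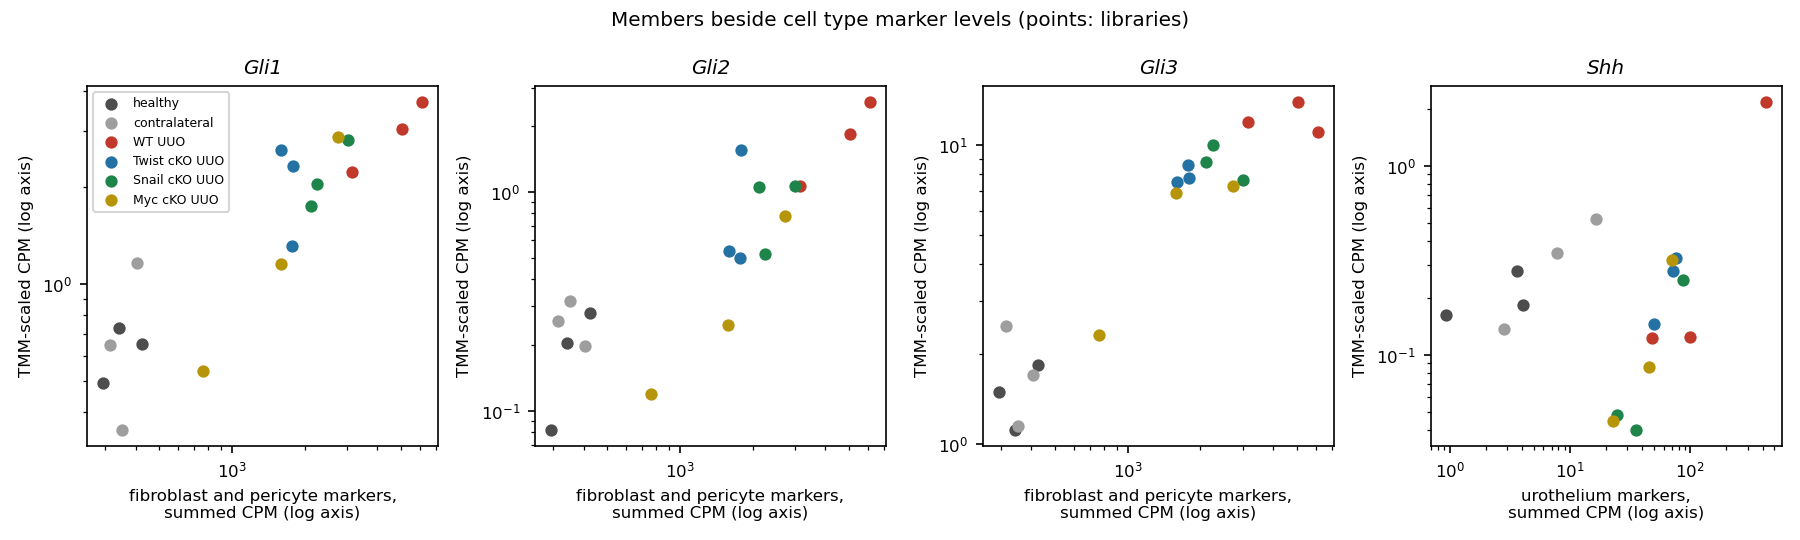
TMM-scaled CPM of Gli1, Gli2 and Gli3 (vertical, log axis) against the summed CPM of 10 fibroblast and pericyte markers (horizontal, log axis), and of Shh against 7 urothelium markers. Points are the 18 libraries. Unobstructed libraries lie at the lower left and WT UUO libraries at the upper right for the GLI genes, and the WT UUO library with 2.16 CPM of Shh has the highest urothelium sum, 426.9 CPM.

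Twist cKO was set against WT UUO to ask what deletion of Twist with an endothelial Cre changed in the obstructed kidney. Ihh rose, and no GLI gene passed the test. Of the 8 genes 1 rose and 0 fell, where 2.97% of all genes tested rose and 2.31% fell. The median log2 difference was -0.43 over the 8 and -0.0074 over all genes.

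Ihh had 7.98, 8.97 and 12.5 CPM in Twist cKO, above the 3.12, 5.88 and 4.71 of WT UUO. It rose by 1.10 ± 0.26 (log2; 2.15-fold; adjusted p = 0.0301). The call was lost without WT UUO replicate 1 (0.90, adjusted p = 0.143) and without Twist cKO replicate 2 (1.16, 0.0867) or 3 (0.91, 0.0984). It was lost as well without both WT UUO replicate 1 and Myc cKO replicate 3 (0.89, 0.106) and in a fit of the 2 groups alone (0.0618).

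Gli3 had 7.55, 7.76 and 8.55 CPM in Twist cKO, all below the lowest WT UUO library at 11.1. Its log2 difference was -0.63 ± 0.33 (adjusted p = 0.281), not past the threshold, and with only these 2 groups in the fit it was called (-0.63, 0.0383). Gli1 had 2.62, 2.32 and 1.31 CPM (-0.52 ± 0.50, adjusted p = 0.587) and Gli2 0.535, 1.56 and 0.497 CPM (-1.08 ± 0.60, 0.310), both overlapping with WT UUO. Ptch1 had 25.4, 29.7 and 29.7 CPM (0.21 ± 0.11, 0.262) and Smo 51.5, 54.8 and 53.4 CPM, also overlapping. Shh had 0.326, 0.146 and 0.278 CPM (log2 difference -1.68, adjusted p = 0.342), and 1.01 (0.642) without WT UUO replicate 1. Hhip lay between 0.234 and 0.438 CPM.

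Against contralateral kidneys Gli1, Gli2 and Gli3 were higher in Twist cKO by 1.52 ± 0.52 (adjusted p = 0.0271), 1.75 ± 0.65 (0.0399) and 2.16 ± 0.36 (0.00022), so 3 of 8 rose and 0 fell, where 21.5% of all genes rose and 21.4% fell. The Gli1 call was lost without contralateral replicate 1 (1.45, adjusted p = 0.0783) or 2 (1.20, 0.108) or Twist cKO replicate 1 (1.34, 0.0847) or 2 (1.44, 0.0634). The Gli2 call was lost without contralateral replicate 1 (1.75, 0.0921), 2 (1.93, 0.0694) or 3 (1.59, 0.115) or Twist cKO replicate 2 (1.01, 0.243), with limma voom (0.0915) and with the Cre covariate (0.0930). The Gli3 call held without any 1 library. Among the other pathway genes 3 of 37 rose and 1 fell in Twist cKO against WT UUO. Over all genes 2.97% rose and 2.31% fell there, so the number that fell is near the share of all genes. Sufu, the main cytoplasmic inhibitor of GLI proteins, rose by 0.52 ± 0.13 (adjusted p = 0.0379), Ccnd1 by 0.70 ± 0.18 (0.0402) and Bmp4 by 0.60 ± 0.16 (0.0453), and Hhat fell by 0.51 ± 0.14 (0.044). All 4 of these calls were lost without WT UUO replicate 1, with an adjusted p of 0.166 for Sufu, 0.181 for Ccnd1, 0.191 for Bmp4 and 0.115 for Hhat. All 4 were lost as well without WT UUO replicate 2 or Twist cKO replicate 2 or 3.

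In Snail cKO against WT UUO, edgeR called 0 of the 8 genes, where 0.162% of all genes tested rose and 0.138% fell, and 2 of the 8 had an unadjusted p under 0.05. These were Ihh and Shh. The median log2 difference was -0.30 over the 8 and -0.0046 over all genes. Ihh had 8.84, 8.86 and 10.7 CPM, again above every WT UUO library, with a log2 difference of 1.05 ± 0.26 (adjusted p = 0.0957). DESeq2 called Ihh (0.00549) and limma voom called 0 of the 8. Shh had 0.0479, 0.0402 and 0.250 CPM, from 3 to 21 counts, with a difference of -2.80 ± 1.07 (adjusted p = 0.238). Without WT UUO replicate 1 that difference was -0.11 (0.990).

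Gli3 had 8.78, 9.996 and 7.63 CPM (-0.48 ± 0.33, adjusted p = 0.537) and Gli2 1.05, 0.523 and 1.06 CPM (-1.05 ± 0.60, 0.443) in Snail cKO. Gli3 lay below all WT UUO libraries. Gli2 did so only by a near tie, with 1.059 CPM in Snail cKO replicate 3 and 1.063 in WT UUO replicate 3. Gli1 had 1.75, 2.05 and 2.81 CPM (-0.44 ± 0.50, 0.739), which overlapped, as did Ptch1 with 26.3, 25.6 and 28.3 CPM (0.13 ± 0.11, 0.616). Smo had 60.2, 52.7 and 57.2 CPM and Hhip 0.132 to 0.571. Against contralateral kidneys Gli1, Gli2 and Gli3 were higher by 1.60 ± 0.52 (adjusted p = 0.0195), 1.78 ± 0.65 (0.0351) and 2.30 ± 0.36 (0.000102), so 3 of 8 rose and 0 fell, where 23.7% of all genes rose and 22.8% fell. Gli1 was not called without contralateral replicate 1 (1.53, 0.0617) or 2 (1.28, 0.0821) or Snail cKO replicate 3 (1.39, 0.0653). Gli2 was not called without contralateral replicate 1 (1.78, 0.0839), 2 (1.95, 0.0612) or 3 (1.62, 0.105), without Snail cKO replicate 1 (1.64, 0.0845) or 3 (1.63, 0.0858), with limma voom (0.0581) or with Cre (0.0843) or sex (0.0580) as a covariate. Of the 37 other pathway genes 0 were called against WT UUO by edgeR, with 9 at an unadjusted p under 0.05. DESeq2 called 2 of the 18 signal transduction genes and limma voom 1, and both called 0 in the other lists.

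Myc cKO kidneys had lower Smo, Gli2 and Gli3 than WT UUO kidneys, so that 3 of the 8 fell and 0 rose, where 6.91% of all genes tested fell and 5.31% rose. The median log2 difference was -0.81 over the 8 and 0.0012 over all genes. The comparison asks what deletion of Myc with a tubular Cre changed in the obstructed kidney.

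Smo had 42.02, 38.05 and 42.8 CPM in Myc cKO, below the lowest WT UUO library at 50.7 and overlapping the healthy range of 42.1 to 46.3. It fell by 0.39 ± 0.087 (log2; adjusted p = 0.0120). The call was lost without Myc cKO replicate 2 (-0.32, adjusted p = 0.0518), without both WT UUO replicate 1 and Myc cKO replicate 3 (-0.46, 0.0524) and in a fit of the 2 groups alone (0.0876).

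Gli2 had 0.777, 0.246 and 0.119 CPM in Myc cKO, from 56, 20 and 8 counts, all below the lowest WT UUO library at 1.06. It fell by 2.26 ± 0.63 (log2; adjusted p = 0.0326). It was not called without WT UUO replicate 1 (-1.91, adjusted p = 0.123) or 2 (-2.23, 0.0690) or without Myc cKO replicate 2 (-1.998, 0.104) or 3 (-1.84, 0.123). Nor was it called without both WT UUO replicate 1 and Myc cKO replicate 3 (-1.51, 0.304) or in a fit of the 2 groups (0.134).

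Gli3 had 7.27, 6.91 and 2.31 CPM in Myc cKO, against 11.1 to 13.9 in WT UUO. It fell by 1.16 ± 0.34 (log2; adjusted p = 0.0378). Without Myc cKO replicate 3, which also had the lowest fibroblast and pericyte sum, the difference was -0.80 (adjusted p = 0.0892). The call was also lost without WT UUO replicate 1 (-1.22, 0.0862), 2 (-1.04, 0.110) or 3 (-1.16, 0.0731) and without both WT UUO replicate 1 and Myc cKO replicate 3 (-0.87, 0.139). It was lost as well without a filter on low counts (0.0505), with the Cre covariate (0.0558) and in a fit of the 2 groups (0.166). Without both WT UUO replicate 1 and Myc cKO replicate 3, 0 of the 8 genes were called in Myc cKO against WT UUO. That setting was chosen after seeing the data and leaves fewer libraries in both groups. The Smo difference was larger in it than over all libraries.

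Gli1 had 2.87, 1.15 and 0.537 CPM in Myc cKO, the widest spread of any group, overlapping both WT UUO and unobstructed kidneys. Its log2 difference against WT UUO was -0.97 ± 0.50 (adjusted p = 0.221), and it was called without Myc cKO replicate 1 (-1.81, 0.0233). Ptch1 had 22.6, 21.7 and 22.3 CPM (-0.14 ± 0.11, adjusted p = 0.455), below all WT UUO libraries by a small margin. Ihh had 7.66, 6.44 and 8.13 CPM, above all WT UUO libraries, with a difference of 0.70 ± 0.26 (adjusted p = 0.0904) that DESeq2 called (0.0436). Shh had 0.319, 0.0860 and 0.0448 CPM (-2.41 ± 1.05, adjusted p = 0.148), and the difference was 0.29 (0.890) without WT UUO replicate 1. Hhip lay between 0.104 and 0.541 CPM.

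Against contralateral kidneys, Gli3 was higher in Myc cKO by 1.63 ± 0.35 (adjusted p = 0.00162), and Ptch1 and Smo were lower by a log2 difference of -0.49 ± 0.11 (0.00191) and -0.42 ± 0.087 (0.00116), where 22.0% of all genes rose and 22.5% fell. These 3 calls held without any 1 library. The Gli3 libraries overlapped, as Myc cKO replicate 3 (2.31 CPM) lay below contralateral replicate 1 (2.48 CPM). Gli1 was not past the threshold (1.07 ± 0.52, adjusted p = 0.106) but was called without contralateral replicate 3 (1.60, 0.0397) or Myc cKO replicate 3 (1.47, 0.0190). The comparisons with WT UUO share its 3 libraries, and those with contralateral kidneys share theirs, so the values of the 3 knockouts in them are not independent.

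**Figure D4:**
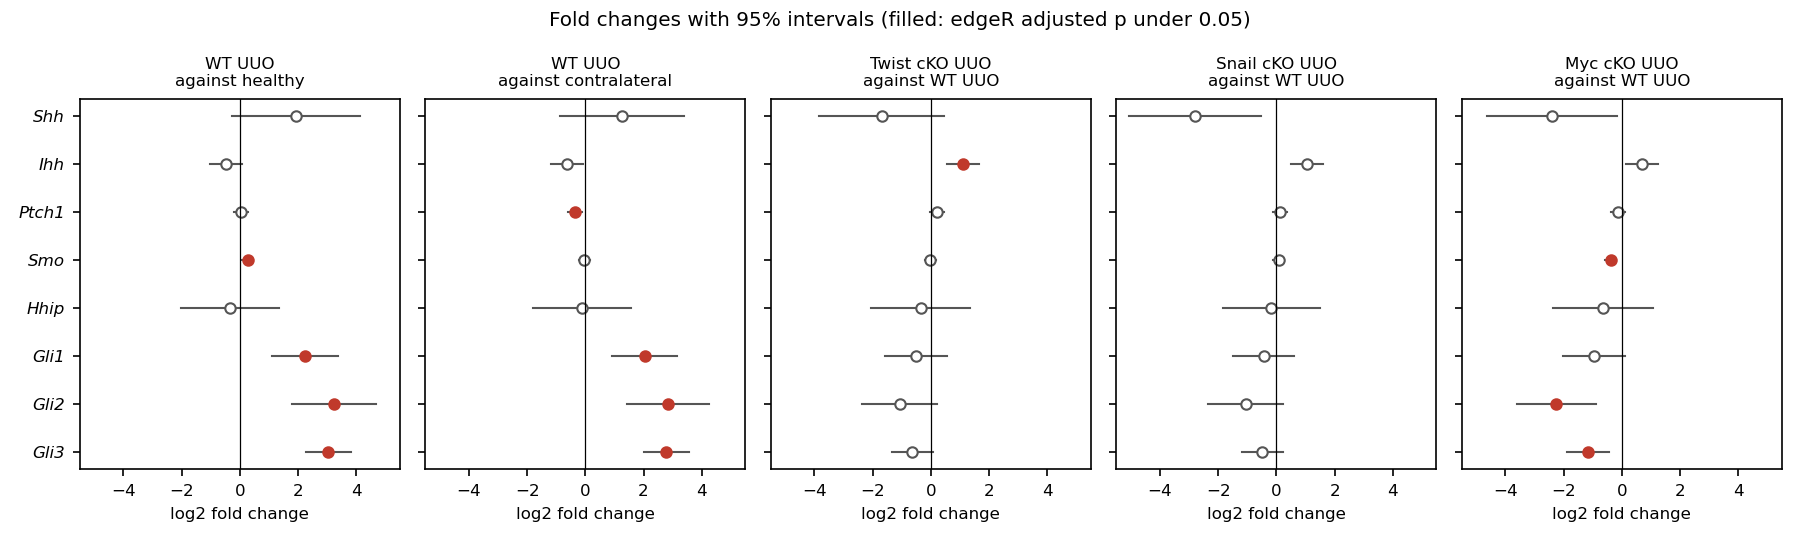
Log2 fold changes with 95% intervals (horizontal axis) of the 8 genes in 5 comparisons. Filled points passed an adjusted p of 0.05. Gli1, Gli2 and Gli3 lie to the right of 0 in WT UUO against healthy and contralateral kidneys, Ihh to the right in Twist cKO against WT UUO, and Smo, Gli2 and Gli3 to the left in Myc cKO against WT UUO.

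Other pathway genes were lower in Myc cKO as well: of 37 tested 8 fell and 2 rose against WT UUO, where 6.91% of all genes fell and 5.31% rose, so the number that rose is at the share of all genes. In the list of ligand release and ligand binding 4 of 10 fell and 0 rose by edgeR (5 had an unadjusted p under 0.05, and DESeq2 and limma voom also called 0 higher), with a median log2 difference of -0.51 against 0.0012 over all genes. These were Disp1 (-0.74 ± 0.18, adjusted p = 0.0198), Hhat (-0.53 ± 0.14, 0.0217), Cdon (-0.52 ± 0.15, 0.0370) and Boc, another co-receptor gene (-0.40 ± 0.12, 0.0429). Among signal transduction genes Adrbk1 (-0.42 ± 0.096, 0.0127) and Gpr161 (-0.98 ± 0.30, 0.0453) fell and Evc rose (0.95 ± 0.23, 0.0172), and their list's median was -0.029. Among target genes, with a median of -0.46, Foxf1 (-2.46 ± 0.73, 0.0409) and Foxl1 (-1.21 ± 0.37, 0.0439) fell and Bmp4 rose (0.53 ± 0.16, 0.0440). Leaving out 1 library at a time left 0 to 3 lower genes in the first list, 0 to 3 in the second and 0 to 2 in the third. All 10 of these calls were lost without Myc cKO replicate 3, with an adjusted p from 0.06205 for Adrbk1 to 0.232 for Bmp4. Without both WT UUO replicate 1 and Myc cKO replicate 3, 0 remained in any list. Without WT UUO replicate 1 the difference of Foxf1 was -1.02 (0.370) and that of Boc -0.25 (0.246).

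Whether the knockouts differed from each other was tested directly. Smo was lower in Myc cKO than in Twist cKO by a log2 difference of -0.38 ± 0.087 (adjusted p = 0.0301) and than in Snail cKO by -0.47 ± 0.087 (0.0138), with no overlap in either comparison. It alone of the 8 was called in each, where 2.99% and 2.45% of all genes were called in either direction. Both calls are sensitive to single libraries: against Twist cKO it was lost without Twist cKO replicate 1, 2 or 3 (0.0674, 0.104 and 0.0941) or Myc cKO replicate 1 or 2 (0.0582 and 0.115), and against Snail cKO without Snail cKO replicate 1 or 3 (0.0890 and 0.0649) or Myc cKO replicate 2 (0.0663). In fits of the 2 groups alone the adjusted p was 0.122 and 0.146.

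The other genes did not differ past the threshold between knockouts. For Gli3 the difference of Myc cKO was -0.53 (95% interval -1.25 to 0.19, adjusted p = 0.459) against Twist cKO and -0.68 (-1.39 to 0.04, 0.325) against Snail cKO, with no overlap of libraries in either. For Gli2 it was -1.18 (-2.51 to 0.15, 0.356) and -1.20 (-2.53 to 0.12, 0.347), and for Ihh -0.40 (-0.95 to 0.14, 0.458) and -0.35 (-0.90 to 0.19, 0.533). Ptch1 differed by -0.35 (-0.58 to -0.12, 0.0980) and -0.27 (-0.50 to -0.04, 0.217), and DESeq2 called the former (0.0364). Between Snail cKO and Twist cKO edgeR called 0 of the 8, with 0 at an unadjusted p under 0.05 and 0 by DESeq2 and limma voom, where 0.171% of all genes were called. For Gli3 that difference was 0.15, with a 95% interval from -0.57 to 0.86.

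As a description, the genes whose log2 level ran most closely with each of the 8 over the 18 libraries were found by Pearson's r among about 13090 candidates. All points share libraries and the step from unobstructed to obstructed kidneys, so r is also given within groups, after each group's mean was removed. For Gli3 these were Lbh (r = 0.99, 0.88 within groups), Arhgef40 (0.99, 0.91) and Samd4 (0.98, 0.83). For Gli1 they were Ntn3 (0.93, 0.79), Kctd11 (0.93, 0.81) and Chst12 (0.93, 0.77), and for Gli2 Pcdh19 (0.94, 0.77), P4ha3 (0.93, 0.76) and Fbln2 (0.93, 0.86), of which P4ha3 encodes a collagen-modifying enzyme and Fbln2 a matrix protein.

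For Smo the closest genes were Wdr46 (0.94, 0.73), Csnk1g2 (0.93, 0.67) and Arf3 (0.93, 0.87), and for Ptch1 Ints1 (0.89, 0.73) and Adcy6 (0.89, 0.75). For Ihh they were Wwc1 (0.86, 0.78), Mapk15 (0.83, 0.61) and Bmp6 (0.82, 0.73). For Shh they were Mcu (0.83, 0.83), Gjb6 (0.82, 0.85) and Snx31 (0.80, 0.81), where a single library carries most of the range. For Hhip they were Tnxb (0.76, 0.80), Podn (0.75, 0.73) and Gdf10 (0.71, 0.78).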

How the data were processed

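The deposited table of raw gene counts was used. The submitters' processing notes name mm10 as genome build and HTSeq, DESeq2 and bcl2fastq 1.8.4 as tools. Neither an aligner nor a strand setting is given in the sources used here. Of 24 columns, 18 matched a sample by name and the other 6 entered no step. Replicates are numbered in the order of the sample records.

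Counts were fitted in R 4.3.3 with edgeR 4.0.16 (filterByExpr, TMM, robust quasi-likelihood) with 6 group means for the 18 libraries, which leaves 12 degrees of freedom, and p-values were adjusted by Benjamini-Hochberg over 21050 genes. All tests are two-sided. SE is the log2 fold change divided by the square root of F, and intervals are 95%. Exon lengths and positions came from GENCODE M21. The fit was tested on simulated counts. Alternatives were RLE factors, no filter on low counts, DESeq2 1.42.0, limma 3.58.1 voom, only the 2 groups compared, a covariate for Cre or for sex (from Ddx3y and Xist), no mt-Rnr1 and mt-Rnr2, and leaving out each library.

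The 8 genes and all lists were chosen with earlier results of these data known. The text names all 8, up to 6 genes per pathway list with the smallest p among those called, and for each of the 8 the 3 genes with the highest r of log2 CPM (prior count 2, average log2 CPM of at least 0). A gene of the first pathway list and 1 of the genes closest to Ptch1 are not reported here, and counts and medians of that list leave the former out.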

Additional observations from a re-analysis of the deposited data

Results flagged for a closer look

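Differences between the effects of the knockouts were tested directly, as Myc cKO against Twist cKO and against Snail cKO in the fit over all libraries, and 3 passed the threshold. Smo was lower in Myc cKO than in Twist cKO by a log2 difference of -0.38 ± 0.087 (adjusted p = 0.0301) and than in Snail cKO by -0.47 ± 0.087 (0.0138). Disp1, which releases the ligand, was lower in Myc cKO than in Snail cKO by -0.77 ± 0.18 (adjusted p = 0.0403), a call lost without Snail cKO replicate 1, 2 or 3 or Myc cKO replicate 2 or 3. Without 1 of these libraries the adjusted p reached 0.170 for Disp1. The call was also lost without a filter on low counts (adjusted p = 0.0566), in a fit of only the 2 groups (0.144), with the Cre covariate (0.0527) and without both WT UUO replicate 1 and Myc cKO replicate 3 (0.118).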

How the results depend on the processing

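The 4 calls in WT UUO against healthy kidneys, the 4 against contralateral kidneys and the 3 in Myc cKO against contralateral kidneys stayed within 1.5 times in number under every alternative tried, and in Snail cKO against Twist cKO 0 were called in each. In the other comparisons the number of the 8 genes called moved. With DESeq2 it was 2 in contralateral against healthy (0 by edgeR), 1 in Snail cKO against WT UUO (0) and 2 in Myc cKO against Twist cKO (1), and with sex as a covariate it was 1 in contralateral against healthy. In fits of only the 2 groups compared it was 0 in Myc cKO against WT UUO, Twist cKO and Snail cKO. Without both WT UUO replicate 1 and Myc cKO replicate 3, an alternative chosen after seeing the data, it was 0 in Twist cKO and 0 in Myc cKO against WT UUO. Leaving out 1 library at a time gave 1 to 4 in Myc cKO against WT UUO, 1 to 3 in Twist cKO and in Snail cKO against contralateral, and 0 to 1 in Twist cKO against WT UUO, contralateral against healthy, and Myc cKO against Twist cKO and against Snail cKO. The cause was not tested.

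Single genes changed sign in 10 cases, none called in either fit. For WT UUO against healthy the log2 difference of Hhip was 0.32 with the Cre covariate and 0.067 and 0.012 without WT UUO replicate 2 and 3, that of Ptch1 was -0.10 without healthy replicate 2, and that of Shh was -0.75 without WT UUO replicate 1 and -0.76 without both libraries. Shh also turned against WT UUO in Twist cKO (1.01 and 1.003) and Myc cKO (0.29 and 0.70) under the same 2 settings. Over all single libraries left out, these differences ranged from -1.58 to 0.067 for Hhip, from -0.10 to 0.12 for Ptch1, and for Shh from -0.75 to 2.44 in WT UUO against healthy, -2.18 to 1.01 in Twist cKO and -3.57 to 0.29 in Myc cKO. Counts of called genes in the 3 pathway lists and both directions stayed within 1.5 times in 452 comparisons of a setting with the values reported, and were lower in 70 and higher in 12. The 452 include cases with 0 called in both fits, which do not show that any call was stable. Low counts limit Shh, Hhip and, in unobstructed and Myc cKO kidneys (8 to 56 counts in the latter), Gli2. They also limit Foxf1, with 1 to 10 counts in healthy and 2 in each contralateral library. No paired analysis was possible because the labels carry no replicate numbers and do not say which kidneys share an animal.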

Other observations

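Against contralateral kidneys, the 37 other pathway genes tested showed 16 higher and 9 lower in WT UUO, 9 higher and 7 lower in Twist cKO, 12 higher and 7 lower in Snail cKO and 8 higher and 9 lower in Myc cKO. Over all genes 27.5% rose and 26.0% fell in WT UUO, 21.5% and 21.4% in Twist cKO, 23.7% and 22.8% in Snail cKO and 22.0% and 22.5% in Myc cKO. The Twist cKO and Myc cKO counts thus lie near the share of all genes, as do the numbers that fell in WT UUO and Snail cKO. The median log2 difference over these 37 genes was 0.30, 0.17, 0.29 and 0.052 in that order, and these comparisons share the 3 contralateral libraries. Dhh, the third Hedgehog ligand, had 0.343 ± 0.173 CPM (SD, n = 3) in healthy kidneys, from 8 to 25 counts, and 0.833 ± 0.348 in WT UUO kidneys. Its rise (log2 1.28 ± 0.52, adjusted p = 0.0486) was lost without healthy replicate 2 or 3 or WT UUO replicate 1 or 3, with adjusted p up to 0.187. The call was also lost with limma voom, without a filter on low counts, with the Cre covariate and in a fit of only the 2 groups compared. Leaving out both WT UUO replicate 1 and Myc cKO replicate 3 lost it as well. Among the knockouts the Dhh level was 0.610 ± 0.352 CPM with Twist deleted, 0.591 ± 0.0244 with Snail and 0.418 ± 0.229 with Myc deleted. Dhh lies outside the rule for naming genes and was chosen after its values were seen, as the remaining ligand of the family.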
